A study of Homo sapiens with 8 samples.

Results

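Plasma membrane amino acid transporters were followed through the silencing of NFE2L2, the gene encoding the transcription factor NRF2, in A549 cells, an established human lung adenocarcinoma line. The 10 transporters were chosen by name, with earlier results of these data known. They were SLC7A1, SLC7A2, SLC7A5, SLC7A6, SLC7A7, SLC1A3, SLC1A4, SLC1A5, SLC38A1 and SLC38A2. All 10 were found among the 60291 counted genes, and 9 of them had enough reads to be among the 17811 genes tested. A549 cells have lost the function of KEAP1, the protein that normally marks NRF2 for degradation, so before silencing NRF2 activity is permanently high in the line that all groups share, controls included. Cells were transfected, 250000 at a time, with RNAiMAX lipid and 5 nmol of an siRNA, a short RNA duplex that directs the breakdown of matching mRNA. RNA was taken 48 h later. The NFE2L2 siRNA group held 3 transfections, each with its own duplex. The control siRNA group held 4 transfections, from 2 control duplexes used 2 times each, and 1 mock transfection had no siRNA. Ribosomal RNA was removed and the total RNA was sequenced strand by strand. All libraries came from the single line A549, and p-values measure only the spread between these transfections, in which each NFE2L2 duplex was used once.

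These transporters belong to a few families with different cargo. SLC7A1 and SLC7A2 carry cationic amino acids such as arginine and lysine into the cell. SLC7A5, SLC7A6 and SLC7A7 are light chains that reach the cell surface as heterodimers with the glycoprotein SLC3A2 (4F2hc, CD98), and they exchange large neutral amino acids or, for SLC7A6 and SLC7A7, cationic for neutral amino acids. SLC1A4 and SLC1A5 exchange small neutral amino acids with sodium, and SLC1A5 is a main route for glutamine in many tumour cells. SLC1A3 takes up glutamate and aspartate. SLC38A1 and SLC38A2 are sodium-coupled carriers that load cells with glutamine and alanine, and SLC38A2 is known to be induced when amino acids run short. Among their relatives, SLC7A11, the cystine importer that also pairs with SLC3A2, is an established NRF2 target.

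Gene counts summed to 35525141 to 41645410 per library. NFE2L2 itself had 1178, 2044 and 1262 reads in the libraries of NFE2L2 duplexes 1, 2 and 3, against 3974 to 4227 in the control libraries. It fell by 1.55 on the log2 scale (SE 0.178, adjusted p = 0.000994 by the edgeR quasi-likelihood test with Benjamini-Hochberg adjustment). The library of duplex 2 kept the most NFE2L2 mRNA, 46.6% of the control mean in CPM (reads per 1000000 gene counts after TMM scaling), against 29.5% with duplex 1 and 26.6% with duplex 3. Over the 13335 genes whose mean was 50 reads or more, 285, 301 and 131 genes in the libraries of duplexes 1, 2 and 3 lay more than 2-fold from the mean of the other libraries of their group, against 4 to 38 in the control libraries. The NFE2L2 siRNA libraries therefore stood further apart from each other than the controls did. However, each control library had a repeat of its own duplex in its group, and no NFE2L2 siRNA library had one. Values are given for each NFE2L2 siRNA library. All 5 epithelial markers on the list were detected, with summed levels of 7634 to 8383 CPM in control and 7337 to 11695 CPM in NFE2L2 siRNA libraries, almost all of it KRT8 and KRT18. None of the 5 passed, but their median log2 fold change was 0.74, and CDH1 and KRT19 lay above every control in each NFE2L2 siRNA library (223 to 237 CPM against 100.5 to 193 CPM for CDH1, and 60.5 to 114 CPM against 39.9 to 49.5 CPM for KRT19). The leukocyte markers PTPRC, CD3E and MS4A1 were at most 0.0831 CPM in any library of either group. The summed fibroblast markers were 5.12 to 6.39 CPM in control and 11.5 to 17.2 CPM in NFE2L2 siRNA libraries, almost all of it COL1A1 and COL3A1, with COL1A2 and DCN near 0. The summed leukocyte markers were 4.57 to 6.85 and 7.73 to 11.2 CPM, almost all of it CD14, and the endothelial markers, of which 4 of 5 were matched, summed to 0.296 to 0.471 and 0.727 to 1.20 CPM. COL1A1 rose from 4.29 to 12.1 CPM (adjusted p = 0.000493) and CDH5 from 0.170 to 0.677 CPM (adjusted p = 0.0082, past the threshold in 1 of the 7 fits that omitted a library). The part of these differences in the results below was not tested. In bulk RNA, fewer cells of a type and less RNA per cell cannot be told apart.

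NRF2 acts through the antioxidant response element, so its core, TGACNNNGC, was looked for on both strands of the RefSeq promoter windows, which run from 250 bases before to 50 bases after each start site (GRCh38.p14). Of the 10 transporters, 9 have an entry, with 17 windows in all, and SLC7A2 has none. At least 1 window held the core for 6 of the 9, SLC7A1, SLC7A5, SLC7A6, SLC7A7, SLC1A3 and SLC1A5. By window, 6 of the 17 held it, against 13.3% of all 35116 windows. Of all 27305 genes with an entry 16.1% held it. The 6 transporters' matches are shown with 10 bases on each side. Those of the partner SLC3A2 and of GCLM, an established NRF2 target, are shown with them. Values for the same genes are given in the following paragraphs. GCLM was the only listed NRF2 target whose matches were printed, so it does not stand for the others. Sequences are written 5′ to 3′ on the strand of the gene, with the core in capitals. In SLC1A5 and GCLM the match is on the other strand, so the capitals are its reverse complement.
SLC7A1, chr13:29595755-29595783, minus strand: tgcccggcggTGACGCGGCcgagcgggcc
SLC7A5, chr16:87869491-87869519, minus strand: gcggggttccTGACGCAGCtgcgggcggc
SLC7A6, chr16:68264319-68264347, plus strand: gctcgagcccTGACGAGGCagctgggggc
SLC7A6, chr16:68264487-68264515, plus strand: cggcggcgggTGACGTGGCggggcggggc
SLC7A7, chr14:22819861-22819889, minus strand: cctctgggtcTGACCAGGCagtcccagct
SLC1A3, chr5:36606400-36606428, plus strand: gacagtgaacTGACAAAGCgtgaaagtgg
SLC1A5, chr19:46787386-46787414, minus strand: cctggatcttGCGAGGTCAgctcccgctc
SLC3A2, chr11:62881652-62881680, plus strand: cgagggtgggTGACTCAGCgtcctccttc
GCLM, chr1:93909446-93909474, minus strand: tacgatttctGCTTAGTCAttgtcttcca

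Other elements were searched in the same windows. TGATGNAA, the core of the amino acid response element through which ATF4 acts, was found for 5 of the 9 transporters (SLC7A1, SLC1A3, SLC1A4, SLC1A5 and SLC38A1), and for 4.46% of all genes with an entry. The E-box CACGTG, a site of MYC and related factors, was found for SLC7A5, SLC7A7 and SLC1A5, and for 8.77% of all genes with an entry. No match of one of the 3 motifs overlapped a match of another. A match of this kind describes the letters of a window and not a bound site, and the windows leave out enhancers and start sites that the RefSeq table does not list. Where a gene has several windows, a match in 1 of them counted for the gene. By window, TGATGNAA was in 5 of the 17 against 3.62% of all windows, and CACGTG in 3 of the 17 against 7.26%.

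With NFE2L2 silenced, 1 of the 9 tested transporters passed the threshold of 0.01 on the adjusted p, the cationic carrier SLC7A2, which rose. None of the 9 passed as reduced. Over all genes tested 2.76% passed, 1.39% as increased and 1.36% as reduced, which is 248 increased genes of 491. That even split was not kept in every fit. It was 24 increased of 120 against control duplex 1 alone and 6 of 59 against control duplex 2 alone. After summing the repeats of each control duplex it was 3 of 78. It also shifted when some single libraries of either group were left out, and the cause was not tested. For SLC7A2 and SLC38A2 every NFE2L2 siRNA library lay above every control library, as it did for 11.9% of all genes. For 0 of the 9 did every NFE2L2 siRNA library lie below every control library, which was the case for 11.4% of all genes, and the other 7 transporters overlapped between the groups. The log2 fold change was negative for 7 and positive for 2 of the 9, with a median of −0.16 against 0.01 over all genes. Without adjustment, p was under 0.05 for 3 of the 9, SLC7A2, SLC38A2 and SLC1A5, as it was for 25% of all genes.

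**Figure D1:**
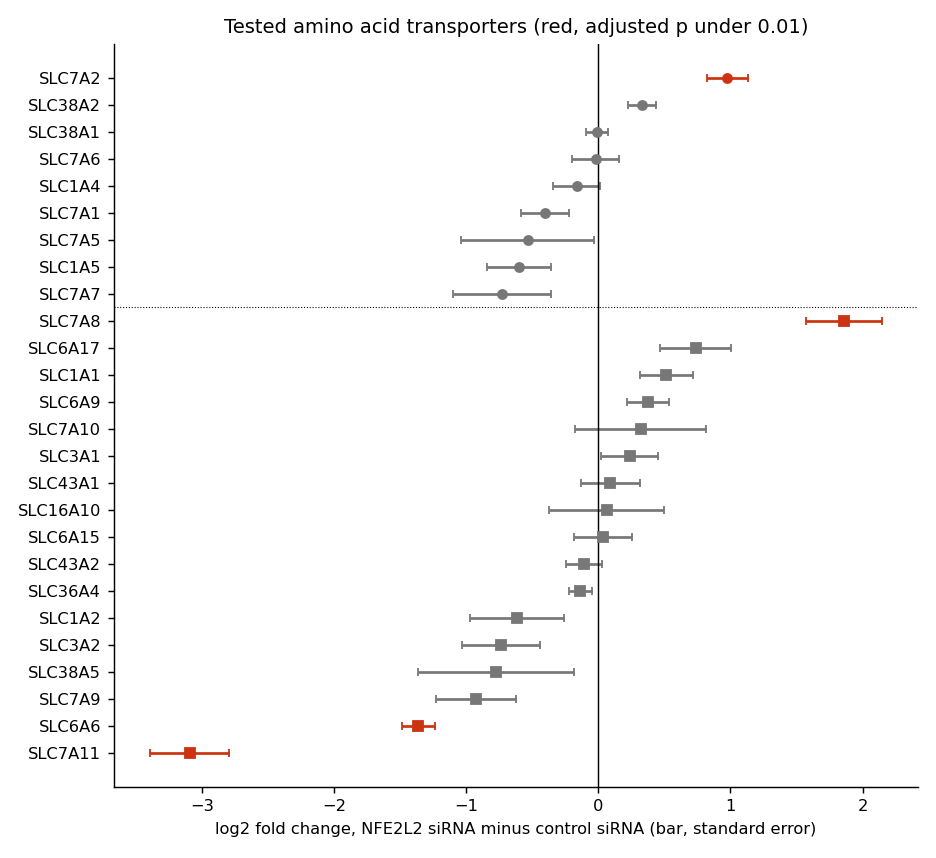
Log2 fold change of NFE2L2 siRNA against control siRNA (horizontal axis, bars are standard errors) for the 9 tested transporters (circles, above the dotted line) and 17 tested relatives of the plasma membrane (squares), with genes past an adjusted p of 0.01 in red. SLC7A2 at 0.98 is the only circle in red, and SLC7A11 at −3.09 and SLC7A8 at 1.86 are the extremes of the squares.

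Per kilobase of merged exons, the transporters covered a wide range of levels in the control libraries. SLC7A5 was the most abundant at 239 ± 30.8 RPKM (CPM divided by exon kilobases; SD, n = 4). It was followed by SLC38A2 at 97.3 ± 5.32, SLC1A5 at 54.7 ± 3.58, SLC38A1 at 31.5 ± 1.53 and SLC7A7 at 12.9 ± 3.91 RPKM, and the control libraries of these neighbours in the order did not overlap. SLC7A1 at 7.89 ± 1.08 RPKM overlapped SLC7A6 at 6.51 ± 0.398, which overlapped SLC7A2 at 5.10 ± 1.02, and SLC7A2 overlapped SLC1A4 at 4.03 ± 0.234 in range. Within single control libraries SLC7A1 nevertheless exceeded SLC7A6 in 4 of 4 and SLC7A6 exceeded SLC7A2 in 4 of 4, while SLC7A2 exceeded SLC1A4 in 3 of 4. The glutamate carrier SLC1A3 had 0, 0, 1 and 2 reads in the control libraries, 1 read in the mock library and 0 reads in each NFE2L2 siRNA library. Its counts stayed under 3 reads everywhere, so expression of SLC1A3 was not detectable at this depth, and it was the transporter not tested. With the length of the longest transcript in place of the merged exons the order was the same, but 7 of the levels moved by more than 1 SD. Among the tested transporters the largest ratio was that of SLC7A7, from 12.9 to 22.9 RPKM.

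SLC7A2 (ENSG00000003989.12; GRCh37 chromosome 8 from 17354597 to 17428082, plus strand) had the same direction with each duplex. On the CPM scale, not divided by length, it stood at 73.4, 76.0 and 88.3 with NFE2L2 duplexes 1, 2 and 3. The control libraries had 41.7 and 30.1 CPM with control duplex 1 and 49.6 and 39.6 CPM with control duplex 2, and the mock library had 51.9 CPM. The lowest NFE2L2 siRNA library was thus well above the highest control, and the mock library was just above the controls. The mean rose from 40.3 ± 8.03 CPM (SD, n = 4) to 79.2 ± 7.96 CPM (SD, n = 3). This is a log2 fold change of 0.98 (SE 0.154, adjusted p = 0.00524, edgeR quasi-likelihood test), a level 1.97 times that of the controls. Fits that each omitted 1 library gave 0.86 to 1.08. The adjusted p rose above 0.01 with the omission of the library of NFE2L2 duplex 3 (0.0253), of either library of control duplex 1 (0.0157 and 0.0109) or of the second library of control duplex 2 (0.0207). Against control duplex 1 alone the adjusted p was 0.0235, against control duplex 2 alone 0.0515, and after summing the repeats of each control duplex 0.0355, all with log2 fold changes of 0.83 to 1.13.

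SLC7A1 (ENSG00000139514.8; chromosome 13 from 30083551 to 30169825, minus strand), the widely expressed cationic carrier, had 43.6, 34.1 and 59.8 CPM with NFE2L2 duplexes 1, 2 and 3. The controls had 50.8 and 56.8 CPM with duplex 1 and 67.9 and 67.2 CPM with duplex 2, and the mock library 70.5 CPM. The library of NFE2L2 duplex 3 lay within the controls and the other 2 lay below them. A log2 fold change of −0.40 resulted (SE 0.183, adjusted p = 0.205 by edgeR), so SLC7A1 did not pass. All 3 NFE2L2 siRNA libraries were below both libraries of control duplex 2, but not below those of control duplex 1. It ranged from −0.64 without the library of NFE2L2 duplex 3 to −0.24 without that of NFE2L2 duplex 2.

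**Figure D2:**
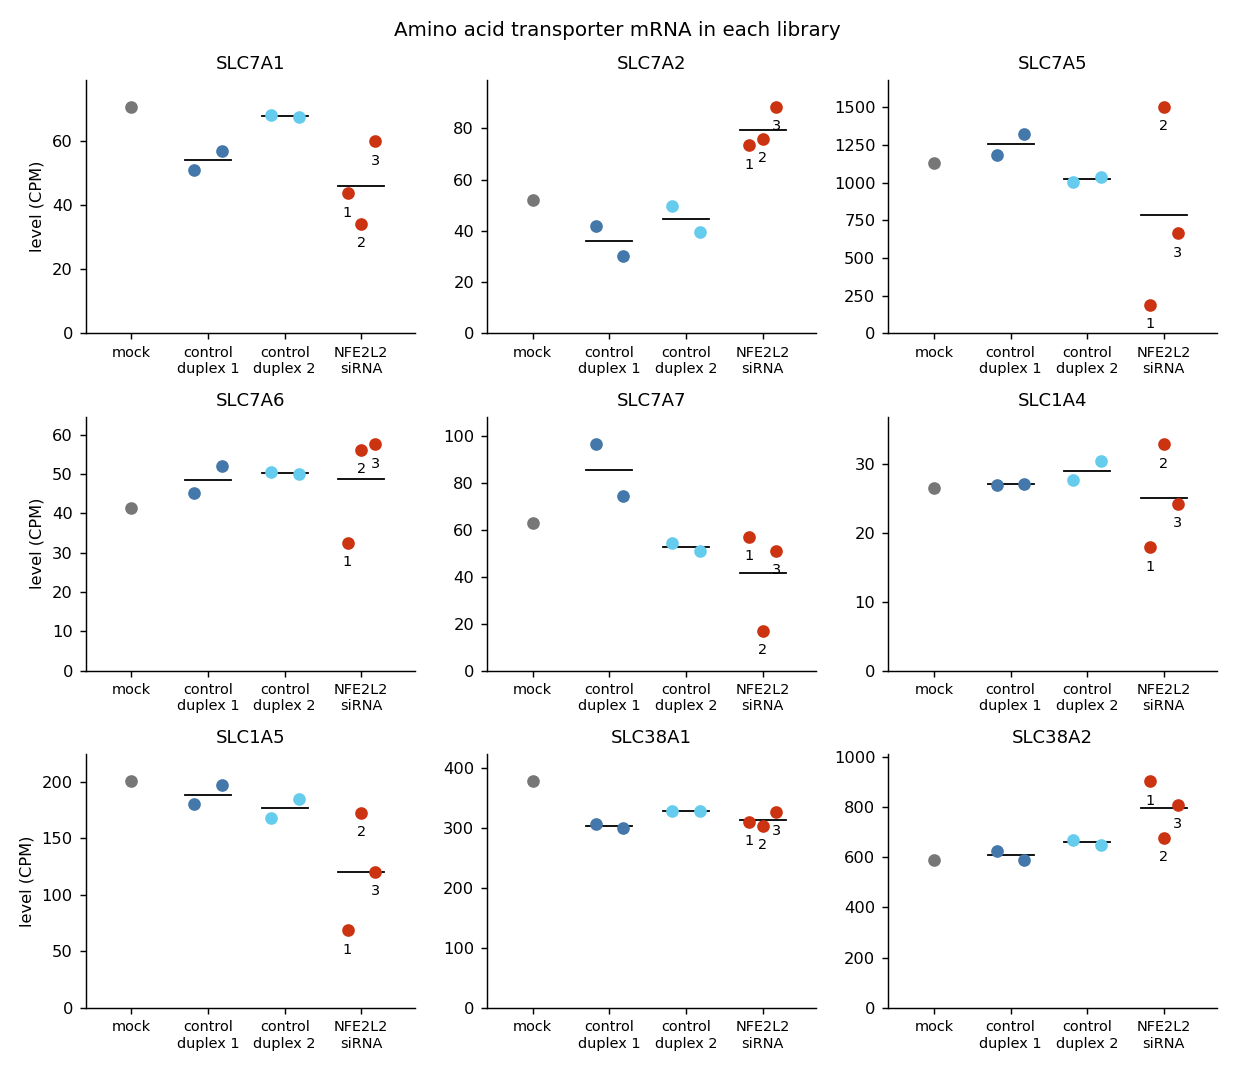
Level of the 9 tested transporters in each of the 8 libraries, in CPM on linear axes that start at 0, with lines at group means and the NFE2L2 siRNA duplexes numbered. SLC7A2 at 73.4 to 88.3 CPM sits above its controls with every NFE2L2 duplex, whereas SLC7A5 ranges from 189 to 1502 CPM between NFE2L2 duplexes.

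SLC7A5 (ENSG00000103257.4; chromosome 16 from 87863629 to 87903113, minus strand), the leucine-importing light chain LAT1, differed between the NFE2L2 duplexes more than any other gene with a mean of at least 50 reads. It had 189 CPM with duplex 1, 1502 CPM with duplex 2 and 665 CPM with duplex 3. The control libraries had 1186 and 1323 CPM with control duplex 1 and 1004 and 1038 CPM with control duplex 2, and the mock library 1130 CPM. Duplexes 1 and 3 were thus below and duplex 2 above all 4 controls. In reads these were 6764, 59031 and 28302 against 37138 to 49189 in the controls, so counting error is small beside the difference. Over the group its log2 fold change was −0.53 (SE 0.501, adjusted p = 0.553 by edgeR). It was −0.07 (adjusted p = 0.893) without the library of duplex 1 and −1.43 (adjusted p = 0.0518) without that of duplex 2.

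SLC3A2 (ENSG00000168003.12), the heavy chain that SLC7A5, SLC7A6 and SLC7A7 share, is no member of the 10 but is read with them. It had 230, 703 and 413 CPM with NFE2L2 duplexes 1, 2 and 3 and 673 to 816 CPM in the control libraries. The library of duplex 2 lay within the controls and the other 2 lay below them. Its log2 fold change was −0.74 (SE 0.293, adjusted p = 0.155 by edgeR), and −1.23 (adjusted p = 0.00686) without the library of duplex 2, the omission under which it passed. The ratio of SLC7A5 reads to SLC3A2 reads was 0.824, 2.14 and 1.61 with duplexes 1, 2 and 3 and 1.40 to 1.62 in the controls. With duplex 1 this ratio was below, and with duplex 2 above, every control. The other heavy chain SLC3A1, which serves kidney and gut light chains, was scarce at 1.17 CPM with NFE2L2 siRNA and 0.989 CPM with control siRNA, with a log2 fold change of 0.24 (SE 0.215, adjusted p = 0.536).

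SLC7A6 (ENSG00000103064.9; chromosome 16 from 68298419 to 68335726, plus strand), the exchanger y+LAT2, had 32.6 CPM with NFE2L2 duplex 1, below its 45.0 to 51.9 CPM in the controls. With duplexes 2 and 3 it had 56.1 and 57.6 CPM, above every control. These opposite deviations left a log2 fold change of −0.02 (SE 0.178, adjusted p = 0.964), and its sign turned with the scaling, at 0.02 with library size alone, and without the library of duplex 1, at 0.20.

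SLC7A7 (ENSG00000155465.14; chromosome 14 from 23242431 to 23299029, minus strand), the related exchanger y+LAT1, was lowest with duplex 2. It had 57.0, 17.1 and 51.1 CPM with NFE2L2 duplexes 1, 2 and 3. The control libraries had 96.4 and 74.4 CPM with control duplex 1 and 54.2 and 51.1 CPM with control duplex 2, and the mock library 63.0 CPM. The control duplexes thus did not overlap, and the libraries of NFE2L2 duplexes 1 and 3 lay close to control duplex 2. SLC7A7 had a log2 fold change of −0.73 (SE 0.370, adjusted p = 0.256), which was −0.36 without the library of duplex 2.

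Of the SLC1 family, SLC1A5 (ENSG00000105281.8; chromosome 19 from 47278140 to 47291851, minus strand), the glutamine carrier ASCT2, had 68.4, 172 and 120 CPM with NFE2L2 duplexes 1, 2 and 3. The control libraries had 168 to 197 CPM and the mock library 200.3 CPM. Duplex 2 lay within the controls and the other 2 lay below them, as for SLC3A2. For SLC1A5 the log2 fold change was −0.60 (SE 0.244, adjusted p = 0.162 by edgeR). It was −0.97 (adjusted p = 0.0145) without the library of duplex 2 and −0.32 (adjusted p = 0.178) without that of duplex 1. SLC1A4 (ENSG00000115902.6; chromosome 2 from 65215611 to 65250999, plus strand), the alanine, serine and cysteine carrier ASCT1, had 17.8, 32.8 and 24.2 CPM against 26.9 to 30.4 CPM in the controls. Its library of duplex 2 was above and the other 2 were below all controls. For SLC1A4 the log2 fold change was −0.16 (SE 0.178, adjusted p = 0.614), and it turned to 0.03 without the library of duplex 1. SLC1A3 (ENSG00000079215.9; chromosome 5 from 36596690 to 36688436, plus strand) had no more than the reads given above.

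Both SLC38 carriers were abundant in every library. SLC38A2 (ENSG00000134294.9; chromosome 12 from 46751971 to 46766556, minus strand) had 903, 678 and 809 CPM with NFE2L2 duplexes 1, 2 and 3. The control libraries had 589 to 670 CPM and the mock library 588 CPM. All 3 NFE2L2 siRNA libraries were above the controls, the one with duplex 2 only narrowly. A log2 fold change of 0.33 was obtained (SE 0.109, adjusted p = 0.0944), so SLC38A2 did not pass, and it stayed between 0.23 and 0.42 with single libraries left out, with adjusted p-values of 0.0219 to 0.245. SLC38A1 (ENSG00000111371.11; chromosome 12 from 46576846 to 46663800, minus strand) had 310, 303 and 327 CPM with NFE2L2 siRNA and 299 to 329 CPM with control siRNA, and 378 CPM in the mock library. The groups overlapped fully. Its log2 fold change was −0.01 (SE 0.0828, adjusted p = 0.954), with a sign that turned to 0.02 under scaling by library size alone.

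The spread between NFE2L2 duplexes was compared with that of all genes, as a description. Over the 3 NFE2L2 siRNA libraries, the difference between the highest and the lowest log2 level was 2.99 for SLC7A5, a 7.94-fold range, and 0 of the 13335 genes had a larger one. In the 4 control libraries the range of SLC7A5 was 0.40 on the same scale. The range with NFE2L2 siRNA was 1.71 for SLC7A7, 1.61 for SLC3A2 and 1.33 for SLC1A5, and 109, 149 and 309 genes had a larger range. It was 0.86 for SLC1A4, 0.81 for SLC7A6, 0.80 for SLC7A1 and 0.41 for SLC38A2. SLC7A2 at 0.26 and SLC38A1 at 0.11 lay below the median of all genes, which was 0.37 with NFE2L2 siRNA and 0.24 in the controls.

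Set against the control mean, duplex 1 left SLC7A5 at 16.6%, SLC3A2 at 30.7%, SLC1A5 at 37.5%, SLC1A4 at 63.8% and SLC7A6 at 65.9%. With duplex 2 SLC7A5 was at 132%, SLC3A2 at 94.2%, SLC1A5 at 94.4%, SLC1A4 at 117% and SLC7A6 at 114%. With duplex 3 the first 3 of these were at 58.5%, 55.3% and 65.9%. Duplex 1 was the lowest of the 3 for all 5 genes, and duplex 2 the highest for all but SLC7A6. SLC7A7 and SLC7A1 had another order, with their lowest levels, 24.7% and 56.2%, in the library of duplex 2. SLC38A2 had the reverse order of SLC7A5, at 142%, 107% and 128% with duplexes 1, 2 and 3. SLC7A2 and SLC38A1 were highest with duplex 3. Residual NFE2L2 mRNA was 29.5%, 46.6% and 26.6% of the control mean with duplexes 1, 2 and 3. Duplex 2 was thus highest for both NFE2L2 and SLC7A5, and duplexes 1 and 3 had opposite orders for these genes. Each NFE2L2 duplex was sequenced once, so the duplex and the transfection cannot be told apart.

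A test among the 3 NFE2L2 duplexes, chosen after the data were seen, gave each duplex its own group and took the spread from the repeats of the control duplexes, with 2 residual degrees of freedom. It assumes that a transfection with an NFE2L2 duplex varies like these repeats. Over all genes 18.1% passed the adjusted p of 0.01 in this edgeR fit, and of the 9 transporters 6 passed. SLC7A5 had an adjusted p of 4.71e-06, SLC1A5 of 6.39e-05, SLC7A7 of 0.00013, SLC7A6 of 0.000727, SLC1A4 of 0.000749 and SLC7A1 of 0.000752, and the partner SLC3A2 had 2.75e-05. SLC38A2 did not pass (adjusted p = 0.0203), nor did SLC7A2 (adjusted p = 0.478) or SLC38A1 (adjusted p = 0.542). These calls rested on the pair of control duplex 2. All were lost when either of its libraries was left out, while leaving out a library of control duplex 1 gave more calls over all genes. Such a fit has only 1 pair of repeats left, so its counts are not weighed.

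**Figure D3:**
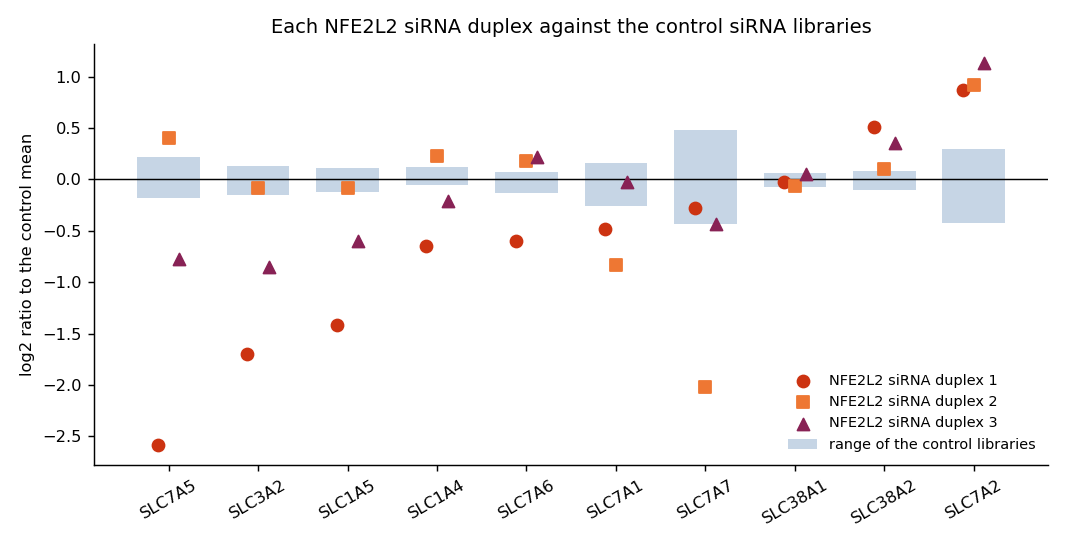
Log2 ratio of each NFE2L2 siRNA library to the control mean (symbols by duplex) for 9 transporters and the partner SLC3A2, with the range of the 4 control libraries as blue boxes. SLC7A2 lies above its control range with all 3 duplexes, and SLC7A5 lies below it with duplexes 1 and 3 and above it with duplex 2.

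**Figure D4:**
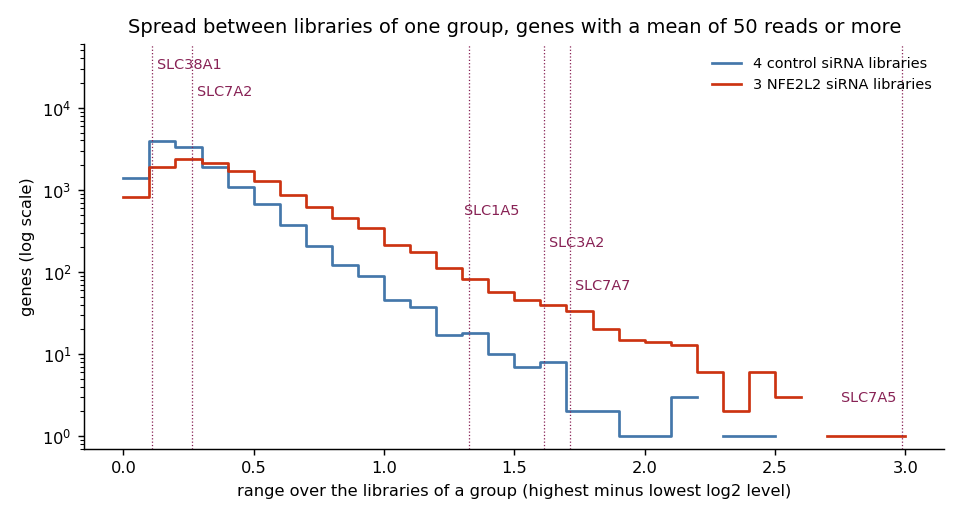
Number of genes (log axis) by the range of their log2 level over the 3 NFE2L2 siRNA libraries (red) and over the 4 control libraries (blue), for the 13335 genes with a mean of at least 50 reads, with dotted lines at the NFE2L2 siRNA ranges of 5 transporters and SLC3A2. SLC7A5 at 2.99 stands at the end of the red distribution and SLC38A1 at 0.11 near its start.

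The control duplexes were compared with each other, as the measure of what a change of duplex does without NFE2L2 as its target. In a fit over 3 groups, in which the NFE2L2 siRNA libraries also set the spread, 0% of the 17811 genes passed (0 genes by edgeR and 0 by limma-voom, 70 by DESeq2, with 1293 genes at an unadjusted p under 0.05), and no transporter had an unadjusted p under 0.05. On simulated counts the edgeR fit over 3 groups recovered 1% of 1.5-fold and 17% of 2-fold changes, so a missed threshold says little here. The log2 difference of control duplex 2 against control duplex 1 was −0.70 for SLC7A7 (adjusted p = 0.838), 0.33 for SLC7A1 (adjusted p = 0.853), 0.31 for SLC7A2 (adjusted p = 0.810) and −0.30 for SLC7A5 (adjusted p = 0.971). With the 4 control libraries fitted alone, a choice made after the data were seen, 3.28% of 17261 genes passed. Among them was 1 transporter, SLC7A7, at −0.69 (SE 0.104, adjusted p = 0.00308 by edgeR). SLC7A1 was at 0.33 (adjusted p = 0.0145) and SLC7A5 at −0.29 (adjusted p = 0.0418) in that fit.

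Of 32 further amino acid transporters of the plasma membrane, 31 were matched to a counted gene. Of these 17 were tested and 14 had too few reads. Among the 17, 1 was increased and 2 were reduced, with a median log2 fold change of 0.03. The cystine importer SLC7A11 fell from 516 ± 63.1 CPM (SD, n = 4) to 60.6 ± 28.2 CPM (SD, n = 3), a log2 fold change of −3.09 (SE 0.298, adjusted p = 0.000307). The taurine carrier SLC6A6 fell from 249 ± 13.8 CPM to 96.8 ± 16.7 CPM, with a log2 fold change of −1.36 (SE 0.124, adjusted p = 0.000251). The neutral amino acid exchanger SLC7A8 (LAT2), which also pairs with SLC3A2, rose from 0.652 ± 0.153 CPM to 2.37 ± 0.863 CPM, with a log2 fold change of 1.86 (SE 0.286, adjusted p = 0.00469), and it passed in only 2 of the 7 fits that left out 1 library, those without NFE2L2 duplex 1 or 2. The light chains that share SLC3A2 thus had different courses in the same libraries, with SLC7A11 reduced, SLC7A8 increased and SLC7A5, SLC7A6 and SLC7A7 not past the threshold. Whether these changes differed from each other was not tested.

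Genes around the transporters were counted in lists chosen by name, also with earlier results of these data known. Of 11 amino acid transporters of lysosomes and other inner membranes, 9 were tested and none passed (median log2 fold change 0.13). Of 11 genes of the ATF4 amino acid response, all were tested and 1 passed, the transcription factor CEBPB, which fell with a log2 fold change of −0.55 (SE 0.0963, adjusted p = 0.0087). It passed in 1 of the 7 fits that omitted a library, the one without NFE2L2 duplex 1. The list's median was −0.27, with 8 negative and 3 positive log2 fold changes. ATF4 itself was at −0.30 (SE 0.0929, adjusted p = 0.0777 by edgeR), with every NFE2L2 siRNA library below every control library. Among the 9 tested transporters, 7 had negative log2 fold changes, while SLC38A2 was at 0.33 without passing and SLC7A2 at 0.98. Whether ATF4 had a part in these values was not tested. Of 21 genes of glutamine, glutamate, proline and arginine metabolism, 17 were tested and 1 passed. This was the mitochondrial arginase ARG2, which breaks down arginine, the cargo of SLC7A2, and it rose from 2.65 to 6.92 CPM, a log2 fold change of 1.38 (SE 0.187, adjusted p = 0.00244), which was lost, at an adjusted p of 0.0132, without the first library of control duplex 2. All 11 established NRF2 targets on the list were reduced, with a median log2 fold change of −2.22, and all 11 passed in every fit that omitted a library. GCLM, whose match to the core is shown above beside those of the transporters, fell by 2.52 on the log2 scale (SE 0.119, adjusted p = 4.5e-06). Whether a match goes with a change in level was not tested.

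The genes most like SLC7A2 were sought by the root mean square difference of centred log2 levels over the 8 libraries, among 11920 coding genes. The nearest were the phosphatase PTP4A3 at 0.0997, FSTL4 at 0.121 and the cadherin CDH6 at 0.135, each with a log2 fold change between 1.00 and 1.04 and past the threshold. As they were chosen by likeness to SLC7A2 in these libraries, similar fold changes follow from the choice. PTP4A3 and CDH6 were low, with control means of 2.69 and 2.22 CPM. FSTL4 passed in all 7 fits that omitted a library, and PTP4A3 and CDH6 in 2 of the 7, those without NFE2L2 duplex 1 or 2. For SLC7A5, which was added after its values had been seen, the nearest were PKMYT1, a kinase that restrains CDK1, at 0.187, the cyclin CCNE2 at 0.257 and the cell cycle factor MYBL2 at 0.270. PKMYT1 had 0.213, 1.29 and 0.517 times its control mean with NFE2L2 duplexes 1, 2 and 3, an order like that of SLC7A5, and it did not pass (adjusted p = 0.473). By the same measure SLC3A2 was number 11 and SLC1A5 number 42 from SLC7A5, while SLC7A7 was number 11531. These distances share the same 8 libraries and describe likeness only.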

How the data were processed

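Strand-specific total RNA libraries of A549 cells were grouped by their labels into 3 NFE2L2 siRNA, 4 control siRNA and 1 mock transfection. The authors aligned reads to hg19 with HISAT (0.1.6 in the submitters' processing notes). They deposited raw counts per GENCODE v19 gene from HTSeq (0.6.0 there), without normalization. Of the entries of a library, 60.3% to 65.6% were on genes, lowest with NFE2L2 duplex 1, and the rest was left out. GENCODE v44 lifted to GRCh37 gave symbols and positions (55538 of 60291 identifiers matched). The counting used strand, so the antisense genes that overlap SLC1A3, SLC1A4, SLC1A5, SLC7A5, SLC7A6 and SLC38A2 were kept apart; a small RNA gene lies inside SLC1A4 on its own strand.

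The edgeR quasi-likelihood test (version 4.0.16, R 4.3.3, TMM factors, prior count 0.125) was run for every gene that reached 10 reads in any of the 7 compared libraries. Benjamini-Hochberg adjustment covered all of these genes, at a threshold of 0.01. Gene counts of 35525141 to 41645410 put 3 reads at 0.0720 to 0.0844 CPM. The alternatives included DESeq2 1.42.0 and limma-voom (limma 3.58.1). Tests were checked on simulated counts, in which genes with a mean of at least 50 reads were changed. For NFE2L2 siRNA against control siRNA, edgeR recovered 13% of 1.5-fold and 65% of 2-fold changes, with 2 false calls. Between the control duplexes it recovered 1% and 17%, with 0 false calls. Unchanged genes were simulated without any effect shared by the repeats of a duplex, so these false calls do not cover such effects. Named genes were the 10 members, NFE2L2, the heavy chains, up to 4 called genes of a list and the 3 genes nearest to each called member; other names were added after values were seen. The members and lists were chosen with earlier results of these data known. RPKM divides CPM by the merged exon length. Promoter sequences were RefSeq's on GRCh38.p14 and were joined by symbol only.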

Additional observations from a re-analysis of the deposited data

Results flagged for a closer look

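The mock library, which entered no test, lay above every control siRNA library for 4 transporters. SLC7A1 had 70.5 CPM in it against at most 67.9 in the controls, and SLC7A2 had 51.9 CPM against at most 49.6. SLC1A5 had 200.3 CPM against at most 197, and SLC38A1 had 378 CPM against at most 329. Of the 13335 genes with a mean of at least 50 reads, 23.3% had their mock level above all 4 controls. The mock library lay below every control for 3 further transporters, as for 22.9% of those genes. SLC7A6 had 41.4 CPM in it against at least 45.0 in the controls, SLC1A4 had 26.5 CPM against at least 26.9, and SLC38A2 had 588 CPM against at least 589. The mock library was sequenced once, so these values have no replicate. No control library stood apart for any of the 11 genes examined (0.55 expected by chance, 1 in 20).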

How the results depend on the processing

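SLC7A2 kept its direction under all 18 alternatives and passed the threshold under 11. The number of transporters past it was 0 with control duplex 1 alone, with control duplex 2 alone and after summing the repeats of each control duplex, and 0 to 1 with single libraries left out. The further plasma membrane transporters past it numbered 0 against control duplex 2 alone and 2 to 4 with single libraries left out. Of all genes, 491 passed in the reported fit, 1314 with DESeq2, 1019 with at least 1 read in any library, 1456 at a threshold of 0.05, 772 with the mock added, 120 and 59 with control duplexes 1 and 2 alone, 78 with them summed, and 163 to 915 with single libraries left out (540, 915 and 238 without NFE2L2 duplexes 1, 2 and 3, 277 and 163 without a library of control duplex 1, and 198 and 221 without one of control duplex 2). Between control duplexes, 0 genes passed, 70 with DESeq2, 8 with at least 1 read in any library, 10 at 0.05, 0 to 9 with single libraries left out, and 566 genes with 1 transporter in the 4 control libraries alone. The increased genes were 722 of the 1314, 451 of the 772, 24 of the 120, 6 of the 59 and 3 of the 78, and 277 of 540, 394 of 915, 87 of 238, 109 of 277, 35 of 163, 54 of 198 and 70 of 221 with those 7 libraries left out in turn. The cause of these shifts was not tested.

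Signs turned for 3 transporters near 0. SLC7A6 was at 0.016 with library size alone, 0.029 with the mock added, 0.20 without NFE2L2 duplex 1 and 0.0061 without the second library of control duplex 1, for a range of −0.15 to 0.20 with single libraries left out. SLC1A4 was at 0.027 without NFE2L2 duplex 1, in a range of −0.43 to 0.027. SLC38A1 was at 0.020 with library size alone, 0.039 against control duplex 1 alone and 0.0087 without the second library of control duplex 2, in a range of −0.042 to 0.0087. The other tested transporters kept their direction under every alternative. NFE2L2 itself had adjusted p-values of 0.0229, 0.0259 and 0.0235 with control duplex 1 alone, control duplex 2 alone and summed controls. SLC7A11 and SLC6A6 had 0.0105 and 0.0122 against control duplex 2 alone. No paired analysis was possible because label numbers name siRNA duplexes and repeats of a duplex, which pair no NFE2L2 siRNA library with a control library. With each NFE2L2 duplex used once, a missed threshold says little about genes that differ between duplexes.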
